A study of Mus musculus with 4 samples.

Results

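Rest and 9 of its corepressor genes were examined for Eya1 occupancy in the developing kidney. The 10 genes were chosen by their function, with earlier results of these data known, and comprised Rest, Rcor1, Rcor2, Rcor3, Sin3a, Sin3b, Hdac1, Hdac2, Kdm1a and Ehmt2, of 21951 protein-coding genes in the GENCODE M21 annotation of mm10. Occupancy was measured by ChIP-seq, which sequences the DNA recovered with a protein by immunoprecipitation, in E13.5 mouse kidneys from embryos of the Eya1HA-FLAG knockin line, in which the endogenous Eya1 protein carries HA and FLAG tags. The 4 samples were 2 Eya1 immunoprecipitations with anti-FLAG beads, 1 input control and 1 IgG control, and all came from this line, with no untagged embryos among them. Each assay pooled 80 whole kidneys, so a peak cannot be assigned to nephron progenitors, ureteric bud or stroma, and the tissue label could not be checked against marker genes because the lists hold no expression values. Whether the 2 replicates came from separate pools of embryos was not stated.

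Rest, also called NRSF, is a zinc-finger protein that binds a DNA element called RE1 and silences neuronal genes in cells outside the nervous system. It acts through partner complexes. One end of the protein recruits Sin3 scaffolds with histone deacetylases, and the other end recruits CoREST (the Rcor proteins), which brings the same deacetylases together with the histone H3K4 demethylase Kdm1a (LSD1) and the H3K9 methyltransferase Ehmt2 (G9a). The comparison asked whether Eya1, a coactivator without DNA-binding activity of its own, was found at the promoters of the genes that encode this machinery.

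A peak list was analysed for each Eya1 replicate, and these held 3989 and 3465 peaks at promoters of protein-coding genes. The lists give only positions. A gene therefore either has a peak or has none listed, its read depth is unknown, and the members are described without a statistical test. The replicates differed in peak width over the whole lists, with medians of 1069 bp in replicate 1 and 188 bp in replicate 2, and widths were therefore compared only within a list. Input and IgG served the authors as controls in peak calling and were not analysed here as lists, so the counts below are set beside those over all genes.

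A promoter peak was defined as a peak within 1 kb of any annotated transcription start site (TSS) of the gene. By this rule, 9 of the 10 genes had a promoter peak in replicate 1, where 20.2% of all protein-coding genes did. The same 9 genes had one in replicate 2, where the share of all genes was 14.7%. Rcor2 was the gene with none in either list. All 9 were therefore occupied in both replicates, compared with 11.5% of all genes. In the merged set, which takes a peak from either list, the count was also 9, compared with 23.5%. The peaks of the replicates overlapped at 8 genes, compared with 11.3% of all genes, and the exception was Rcor1. Overlap was usual once both lists held a peak, at 2486 of the 2520 such genes over the whole annotation. These counts depended on the rule by which a listed peak was counted, while the peak calling itself was not varied. In both replicates 5 genes were left when a peak had to cover a TSS (4.12% of all genes), and 5 when peaks below the median width of their list were left out (5.25%). With 50% of both peaks covered, 2 genes overlapped (0.820%). Within gene bodies, farther than 1 kb from every TSS of the gene, neither list held a peak in any of the 10 genes, while 1.81% of all genes had such a peak in the merged set.

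**Figure D1:**
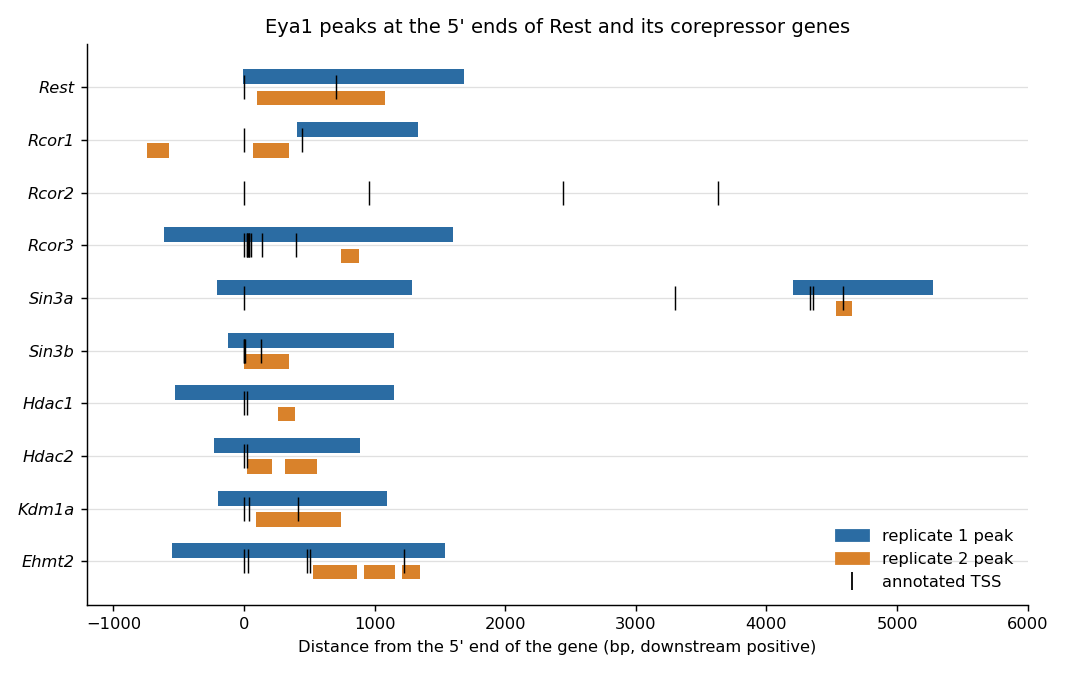
Eya1 peaks of replicate 1 (blue) and replicate 2 (orange) drawn by distance in bp from the 5' end of each gene, with downstream to the right and annotated TSSs as black ticks. Peaks lie at 9 genes, mostly downstream of the 5' end, and Rcor2 has none.

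The 10 genes had 2 to 14 annotated TSSs each, with a median of 7.5, compared with a median of 3 for all protein-coding genes, and each further TSS widens the region in which a peak counts. Among genes with 2 or more TSSs, 24.0% had a promoter peak in replicate 1, 17.5% in replicate 2 and 13.7% in both. When the gene's 5' end alone was used, 9 genes had a peak in replicate 1, compared with 18.7% of all genes, and 8 in replicate 2, compared with 13.2%, where Sin3a was lost. Most of the 10 also had CpG-rich 5' ends, as described below. What part TSS number and base composition play in the count was not tested.

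The sequences at these promoters are shown for the CoREST family, for Hdac2 and for Kdm1a. They set Rcor2, which had no listed peak, beside genes with one. Each run is the 100 bases before the 5' end of the gene, read 5' to 3' on the gene's strand of GRCm38 (mm10). The positions are chr12:111039251-111039350 (plus) for Rcor1, chr19:7267225-7267324 (plus) for Rcor2, chr1:192138063-192138162 (minus) for Rcor3, chr10:36974444-36974543 (plus) for Hdac2 and chr4:136602724-136602823 (minus) for Kdm1a. Capitals mark exact matches to a motif of the panel given below, which here are the SP box GGGCGG, read as CCGCCC on the other strand, and the NFY box CCAAT.
Rcor1: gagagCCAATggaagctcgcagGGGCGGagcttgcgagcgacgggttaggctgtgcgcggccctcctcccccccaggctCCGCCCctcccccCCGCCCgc
Rcor2: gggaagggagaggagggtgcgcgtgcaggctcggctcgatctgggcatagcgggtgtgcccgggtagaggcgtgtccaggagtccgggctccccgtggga
Rcor3: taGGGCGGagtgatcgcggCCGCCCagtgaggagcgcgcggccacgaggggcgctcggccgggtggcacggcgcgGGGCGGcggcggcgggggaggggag
Hdac2: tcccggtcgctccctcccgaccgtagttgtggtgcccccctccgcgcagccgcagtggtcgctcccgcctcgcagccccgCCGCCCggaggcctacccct
Kdm1a: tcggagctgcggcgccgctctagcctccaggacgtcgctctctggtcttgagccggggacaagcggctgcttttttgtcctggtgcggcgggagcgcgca

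The runs of Rcor3, Hdac2 and Kdm1a lie inside a replicate 1 peak, and that of Rcor1 lies between the peaks of the gene. Rcor1 held 3 SP boxes and 1 NFY box in these 100 bases, Rcor3 held 3 SP boxes and Hdac2 held 1, whereas Rcor2 and Kdm1a held no match. A promoter with a listed peak and the one with none listed were thus both without a match in these 100 bases.

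The next runs are whole replicate 2 peaks without annotated UTR sequence, shown as examples of listed DNA upstream of a gene and in an intron, written on the gene's strand with the same capitals. They lie 745 to 574 bp upstream of the Rcor1 5' end (chr12:111038606-111038777) and 316 to 562 bp downstream of that of Hdac2 (chr10:36974860-36975106), in an intron. The Rcor1 peak overlaps no replicate 1 peak, and the Hdac2 peak lies inside one.
Rcor1: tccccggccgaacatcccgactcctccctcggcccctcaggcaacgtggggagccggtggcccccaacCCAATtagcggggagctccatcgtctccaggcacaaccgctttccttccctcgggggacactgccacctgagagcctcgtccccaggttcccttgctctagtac
Hdac2: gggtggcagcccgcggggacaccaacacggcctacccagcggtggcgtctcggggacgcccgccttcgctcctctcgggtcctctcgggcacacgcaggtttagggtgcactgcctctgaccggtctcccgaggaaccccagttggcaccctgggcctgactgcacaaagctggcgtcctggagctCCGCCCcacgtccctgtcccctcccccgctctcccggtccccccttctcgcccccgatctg

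The Rcor1 peak held 1 NFY box and the Hdac2 peak 1 SP box. Their GC contents were 66.3% and 71.3%, where the median over all 3465 replicate 2 promoter peaks was 70.3%.

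Rest itself was occupied in both replicates. The replicate 1 peak was 1692 bp wide and ran from 4 bp upstream to 1687 bp downstream of the 5' end of the gene (chr5:77265491-77286432, plus strand). The replicate 2 peak was 980 bp wide, from 96 to 1075 bp downstream, and lay wholly inside the replicate 1 peak. It covered the second annotated TSS, 705 bp downstream of the first. In replicate 2 this width stood at percentile 99.5 of promoter peaks, the highest of the 10 genes in that list, while in replicate 1 the Rest peak stood at percentile 83.2. Both peaks covered 5' exon sequence annotated as UTR (30.5% and 42.9% of the peak) and the following intron (69.3% and 57.1%), with no coding sequence.

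The protein-coding genes whose promoter peaks were most like those of Rest in width were Zmynd11, Smarce1, Tnpo1, Pan3 and Marcksl1. Likeness was the sum of the absolute log2 width ratios over the 2 replicates, among 2519 other genes with a promoter peak in both lists. Zmynd11, a reader of histone H3.3 methylation and the nearest at a sum of 0.130, had widths of 1749 bp and 926 bp. Smarce1, which encodes a subunit of the BAF chromatin remodeller, followed at 0.150 with 1688 bp and 885 bp. The nuclear import gene Tnpo1 (0.163), the deadenylase gene Pan3 (0.179) and Marcksl1 (0.195), a neighbour of Hdac1, completed the list.

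The 3 CoREST genes differed from each other. Rcor1 encodes the CoREST protein first found with Rest. Its replicate 1 peak was 926 bp wide, from 408 to 1333 bp downstream of the 5' end of the gene (chr12:111039351-111115901, plus strand), and covered the second TSS and an intron. In replicate 2 it had a peak of 280 bp at 66 to 345 bp downstream, over UTR and coding sequence, and the upstream peak of 172 bp printed above. The nearest edges of the replicates were 62 bp apart, so both lists marked the Rcor1 promoter without a shared base. The replicate 1 peak was the narrowest of the 10 genes in that list, at percentile 35.2.

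Rcor3 encodes a CoREST paralogue. It had the widest replicate 1 peak of the 10 genes, 2216 bp (gene chr1:192098546-192138062, minus strand), from 616 bp upstream to 1599 bp downstream, which covered 9 of the gene's 13 TSSs. In replicate 2 the Rcor3 peak was 132 bp wide, at percentile 16.1, and lay 344 bp from the nearest TSS. Replicate 2 thus covered 5.96% of the replicate 1 peak at the gene whose replicate 1 peak was widest. TSSs of the antisense gene Gm10516 and of Gm37055 also lay within 1 kb of both peaks, so the signal cannot be assigned to one gene.

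Rcor2 encodes the third paralogue, known for expression in embryonic stem cells and neural tissue. Neither list held a peak within 1 kb of its 4 TSSs or elsewhere in the gene (chr19:7267325-7275225, plus strand). Within 3 kb of a TSS there was also none. Within 100 kb of the gene, replicate 1 listed 3 peaks and replicate 2 listed 3, and these lay at the promoters of Otub1, Cox8a and Mark2, the closest of them 50.0 kb upstream. Since the depth is unknown, this says that no peak was listed at Rcor2 and not that Eya1 was absent there.

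Sin3a and Sin3b encode the scaffold proteins of the Sin3 complex. Sin3a had 2 replicate 1 peaks (gene chr9:57072040-57128366, plus strand). The first, 1494 bp wide, lay at the 5' end from 204 bp upstream to 1289 bp downstream, and the second, 1071 bp wide, lay 4205 to 5275 bp downstream over 3 further TSSs. Replicate 2 had a peak at the second position alone, 124 bp wide at 4534 to 4657 bp. It stood at percentile 11.3, and the narrowest peak of that list was 117 bp wide. The 5' end peak of Sin3a was therefore seen in replicate 1 only, and the internal promoter was marked in both lists. TSSs of non-coding RNA genes lay within 1 kb of the Sin3a peaks, Gm10658 at the first and 2700012I20Rik at the second.

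Sin3b (chr8:72723285-72758201, plus strand) had a replicate 1 peak of 1269 bp, from 124 bp upstream to 1144 bp downstream. Its replicate 2 peak was 339 bp wide, from 3 to 341 bp downstream, inside the replicate 1 peak, and 77.0% of it was coding sequence. In contrast to Sin3a, both Sin3b peaks lay at the 5' end and covered several of its clustered TSSs.

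Hdac1 and Hdac2 encode the class I deacetylases shared by the Sin3 and CoREST complexes. Hdac1 (chr4:129516104-129542713, minus strand) had a replicate 1 peak of 1675 bp, from 529 bp upstream to 1145 bp downstream. Its replicate 2 peak was 128 bp wide, at percentile 14.0, and lay 260 to 387 bp downstream, wholly within an intron. Hdac2 (chr10:36974544-37001889, plus strand) had a replicate 1 peak of 1121 bp, from 232 bp upstream to 888 bp downstream. Its 2 replicate 2 peaks were 189 bp, over UTR sequence directly after the TSS cluster, and 247 bp, in the intron, and both lay inside the replicate 1 peak. The order of the deacetylase genes by width was reversed between the lists, with Hdac1 wider in replicate 1 and Hdac2 wider in replicate 2.

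Kdm1a, the H3K4 demethylase of the CoREST complex, had a replicate 1 peak of 1294 bp (gene chr4:136550540-136602723, minus strand), from 196 bp upstream to 1097 bp downstream. Its replicate 2 peak of 650 bp, from 95 to 744 bp downstream, lay inside it and stood at percentile 96.4. Kdm1a and Rest were the genes at which replicate 2 covered at least 50% of the replicate 1 peak, with 50.2% and 57.9%. As the replicate 2 peak lay wholly inside at each, this share follows from the widths and is not a separate measure of agreement. Coding sequence made up 54.5% of the replicate 2 peak at Kdm1a, compared with 0% at Rest.

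Ehmt2, the H3K9 methyltransferase, had a replicate 1 peak of 2088 bp (gene chr17:34898469-34914052, plus strand), from 548 bp upstream to 1539 bp downstream, over 5 of its 14 TSSs. Replicate 2 listed 3 peaks inside it, of 337, 235 and 135 bp, which began 529, 920 and 1211 bp downstream. These peaks were mostly coding sequence, which made up 76.0%, 75.7% and 100% of them. TSSs of the complement gene C2 lay within 1 kb of the replicate 1 peak and of the first replicate 2 peak, and both lists held a further peak at C2 and Zbtb12, with midpoints 3.35 and 3.68 kb upstream of Ehmt2.

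**Figure D2:**
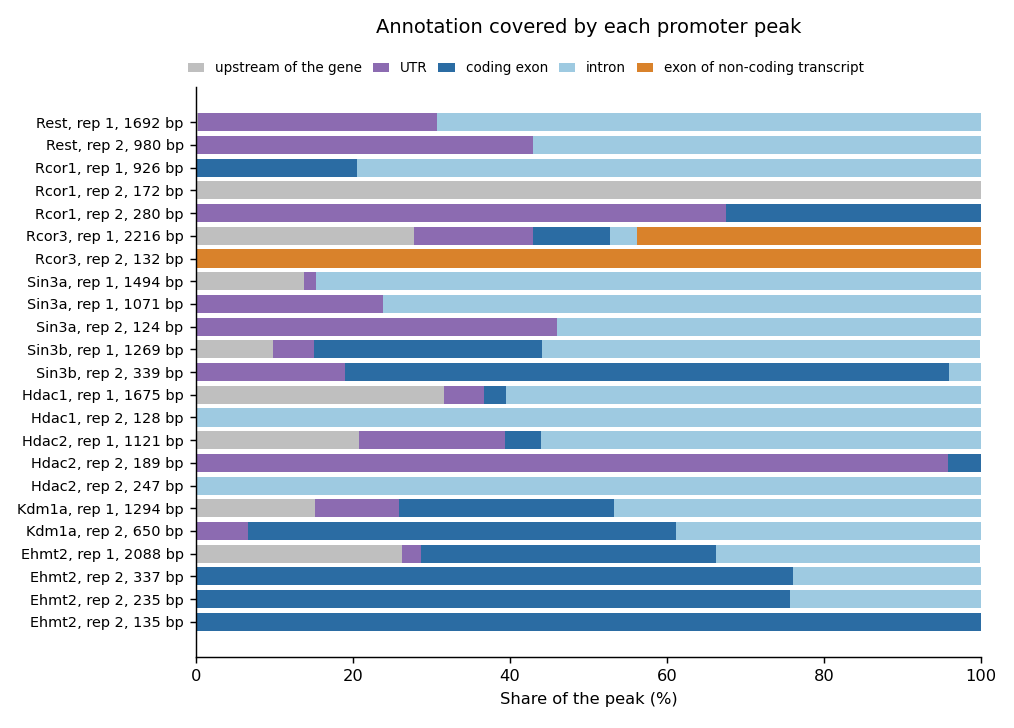
Share of each promoter peak (x axis, %) that lies upstream of the gene, in UTR, coding exon, intron or an exon of a non-coding transcript, with replicate (rep) and width beside the gene name. Replicate 2 peaks hold almost no sequence upstream of the gene, except the Rcor1 peak of 172 bp.

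Across the 9 occupied genes, replicate 1 listed 10 promoter peaks over 14846 bp and replicate 2 listed 13 over 3948 bp. Sequence upstream of the gene made up 16.5% of the replicate 1 total and 4.36% of the replicate 2 total. Introns made up 52.1% and 35.6%, UTRs 11.3% and 24.2%, and coding exons 13.6% and 32.5%.

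The occupied DNA lay mostly downstream of the gene start. Taking the widest promoter peak of each gene, the midpoint was downstream of the 5' end at 9 of 9 genes in each list, with medians of 495.5 bp in replicate 1 and 439 bp in replicate 2. Over all genes with a promoter peak the midpoint was downstream at 85.5% and 86.6%, with medians of 341 bp and 325 bp, so the position was like that of other promoters. A peak covered the 5' end itself at 8 of 9 genes in replicate 1 and at 0 of 9 in replicate 2. Among all genes with a promoter peak in the same list, the shares were 71.3% and 7.28%.

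**Figure D3:**
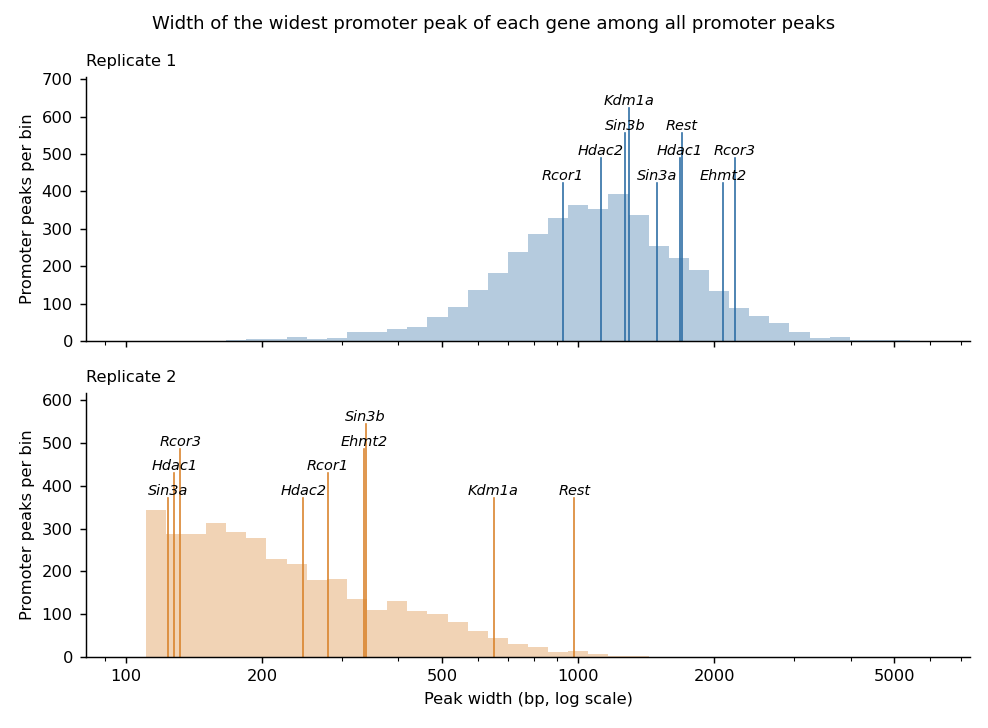
Histograms of the width of all promoter peaks (bp, log scale) in replicate 1 and replicate 2, with a line at the widest promoter peak of each occupied gene. Rest and Kdm1a lie in the upper tail of replicate 2, and Sin3a, Hdac1 and Rcor3 lie near its lower end.

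The widest promoter peaks of the 9 genes ranged from 926 to 2216 bp in replicate 1, with a median of 1494 bp, compared with 1134 bp over all 4444 genes with a promoter peak. In replicate 2 they ranged from 124 to 980 bp, with a median of 280 bp, compared with 215 bp over 3227 genes. The order of the genes was not kept between the lists. Rcor3 was widest in replicate 1, while in replicate 2 Sin3a and Hdac1 alone were narrower, and Kdm1a was below the median of the 9 in replicate 1 and second to Rest in replicate 2. Several promoter peaks at a gene were listed at 3 of the 9 in replicate 2, namely Rcor1, Hdac2 and Ehmt2, compared with 18.4% of all genes with a promoter peak, and at 1 in replicate 1, Sin3a, compared with 3.98%.

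The base composition of the 5' ends was examined in the 300 bp from 250 before to 50 after the gene's 5' end. A 5' end was called CpG-rich when its GC content was over 50% and its CpG observed/expected ratio over 0.6, which held for 8 of the 10 genes. Rest had the highest ratio of the 10, at 1.17, with a GC content of 78.0%. Rcor2 had the lowest, at 0.52, with a GC content of 67.7%. Sin3a was not called CpG-rich because its GC content was 50.0%, with a ratio of 0.78. That value is for its 5' end and not for the internal promoter marked in both lists.

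The share of genes with a promoter peak moved with the CpG ratio over the whole annotation. Of 9004 protein-coding genes with a CpG-rich 5' end, 37.2% had a promoter peak in replicate 1, 27.0% in replicate 2 and 21.3% in both. All 8 CpG-rich genes of the 10 had one in both lists. In the bin that held Rcor2, with ratios from 0.4 to 0.6, 15.9% of 3079 genes had a peak in replicate 1 and 11.1% in replicate 2. In the bin that held Rest, Hdac2 and Kdm1a, with ratios from 1.0 to 1.2, the shares were 49.8% and 37.5% of 1449 genes.

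**Figure D4:**
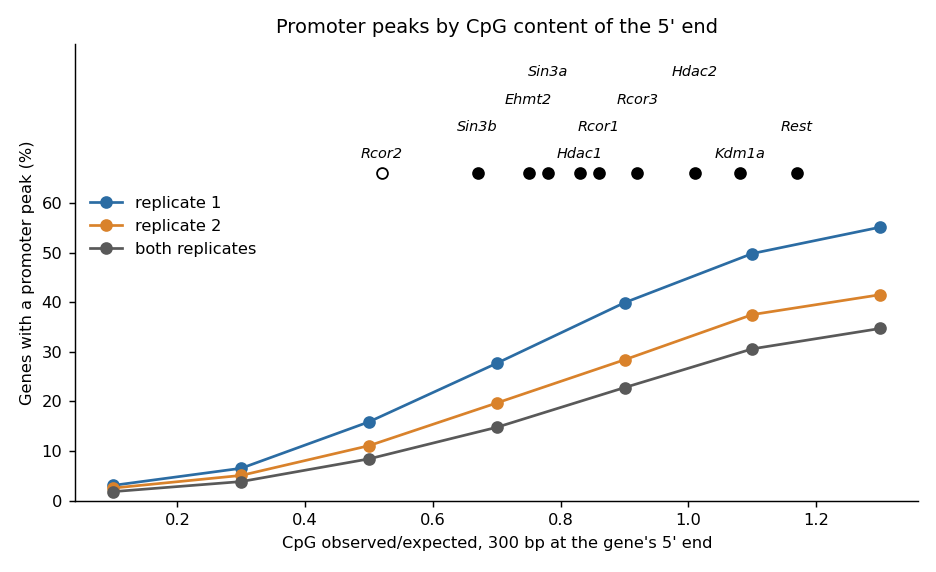
Share of protein-coding genes with a promoter peak (y axis, %) by CpG observed/expected ratio of the 5' end in bins of 0.2, the last bin holding all ratios of 1.2 and over. The circles at the top give the ratio of each of the 10 genes, filled where the gene had a promoter peak, and Rcor2 is the open circle at the lowest ratio.

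The composition of the peaks themselves followed that of the lists. The 10 replicate 1 peaks of these genes had a median of 65.5% (57.1 to 69.1%) and the 13 replicate 2 peaks had a median of 71.3% (61.7 to 80.0%). Medians over all promoter peaks were 63.2% and 70.3%.

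To ask whether these promoters carry the RE1 element, whole promoter peaks were searched with the 17-base RE1 consensus on both strands, allowing 2 mismatches. A match was present at 1 of the 9 genes. It lay in the replicate 1 peak of Hdac1, 367 bp upstream of the 5' end, had 2 mismatches and was not in the replicate 2 peak. Counted in the same way, by gene over both lists, 14.4% of genes with a promoter peak held a match. Over all promoter peaks, 14.7% held a match in replicate 1 and 6.78% in replicate 2. The peaks of Rest held none. A match is a property of the letters and not a measurement of Rest binding.

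Other motifs were searched in RefSeq promoter windows of the same 300-bp size (build GRCm38.p6), which were at hand for 8 of the 10 genes, all but Rest and Hdac1. The panel was matched exactly on both strands, and no match overlapped one of a different motif in these windows. The 8 genes had 10 windows, and a match in any window of a gene counted, whereas the shares over all promoters are by single window. Median GC content was 68.3% in the 10 windows and 56.3% over all windows, and its part in the motif counts was not tested. The SP box GGGCGG was present at 7 of 8 genes, with Kdm1a the exception, compared with 46.2% of 21238 protein-coding promoters. The NFY box CCAAT was present at Rcor1, Sin3a and Kdm1a, compared with 38.2%, and the E-box CACGTG at Rcor2 and Ehmt2, compared with 7.84%. The TATA motif TATAAA was present at Sin3b alone, compared with 12.6%. The ETS motif CCGGAAG, the YY1 motif AAGATGGC, the NRF1 motif GCGCATGC, the RFX motif GTTGCCATG and RE1 were present at 0 of 8, compared with 11.6%, 3.05%, 3.52%, 0.687% and 3.01% of promoters.

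The window of Rcor2, the gene with no listed peak, held 1 SP box and 1 E-box. Its GC content was 67.3%, compared with a median of 68.3% over the 10 windows of the 8 genes. The CpG ratio in this window, which is placed on the RefSeq start and not on the GENCODE 5' end, was 0.67. By the RefSeq start Rcor2 was therefore also over both limits for a CpG-rich 5' end, and its place outside that class depended on which annotated start was used. The same held for Sin3a, whose RefSeq window at its internal promoter had a GC content of 62.3% and a ratio of 0.91.

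Outside the promoters and gene bodies, replicate 1 listed 14 peaks within 100 kb of 6 of the 10 genes and replicate 2 listed 12, also at 6 genes. Of these, 13 and 12 lay within 1 kb of a TSS of another protein-coding gene, where 93.3% and 83.0% of all peaks in the lists lay that close to such a TSS, for example Ptpn9 near Sin3a, Marcksl1 near Hdac1 and Luzp1 near Kdm1a. An RE1 match was present in 2 of the 14, at Marcksl1 and Txlna near Hdac1, and in 0 of the 12. For Rest, the only such peak was a replicate 2 peak of 126 bp at Noa1 and Polr2b, 44.0 kb downstream of the Rest 5' end.

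The other genes of the pathway were examined as a list of 40, chosen by function. Of these, 26 had a promoter peak in replicate 1 (65.0%), 20 in replicate 2 (50.0%) and 17 in both (42.5%), and 30 had a CpG-rich 5' end. Over all protein-coding genes the shares were 20.2%, 14.7% and 11.5%. Over genes with a CpG-rich 5' end they were 37.2%, 27.0% and 21.3%. The counts by group below stand beside these same shares. A promoter peak was listed in neither replicate at 11.

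Sin3 complex subunits had a promoter peak at 10 of 13 genes in each list and at 8 in both. Ing2, an H3K4me3 reader of the complex, had peaks of 3053 bp in replicate 1 and 424 bp in replicate 2. Ing1, its paralogue, had 2031 and 414 bp, the ARID-domain subunit Arid4b had 1519 and 539 bp, and the histone chaperone Rbbp4 had 1437 and 335 bp. Brms1 was the subunit with no peak in either list.

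Further partners of the CoREST complex had a promoter peak at 4 of 9 in replicate 1 (44.4%), compared with 20.2% of all genes. In replicate 2 it was 1 of 9 (11.1%), compared with 14.7%, and in both lists also 1 of 9, compared with 11.5%. Apart from replicate 1, this group was thus not above the share of all genes. Zmym2 was the gene with both, at 763 and 210 bp. Kdm1b, the paralogue of Kdm1a, had a replicate 1 peak of 1546 bp, and Phf21a and Hmg20b had replicate 1 peaks of 1037 and 876 bp. Gse1, Zmym3, Hdac3 and Hdac8 were among those with none. The difference between these partners and the Sin3 subunits was not tested.

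Methylation and bridging factors had a promoter peak at 7 of 10 in replicate 1, 5 in replicate 2 and 4 in both. The 4 were Ctbp2 (2676 and 532 bp) and Ctbp1 (1289 and 218 bp), which encode corepressors, Ehmt1 (1383 and 312 bp), the partner of Ehmt2, and Wiz (1100 and 185 bp). Cdyl, which bridges Rest and Ehmt2, had a replicate 2 peak of 134 bp only. Kdm5c was among those with no peak.

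Among genes of Rest turnover and its phosphatases, 5 of 8 were occupied in replicate 1 and 4 in both lists. Ctdsp1 and Ctdsp2, which encode small phosphatases recruited by Rest, had widths of 2216 and 884 bp and of 2045 and 638 bp. The ubiquitin ligase gene Fbxw11 had 1626 and 702 bp, and Ctdspl had a replicate 1 peak of 1531 bp. Btrc, which encodes the ligase subunit that targets Rest for degradation, had no peak, nor had Rnf220.

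**Figure D5:**
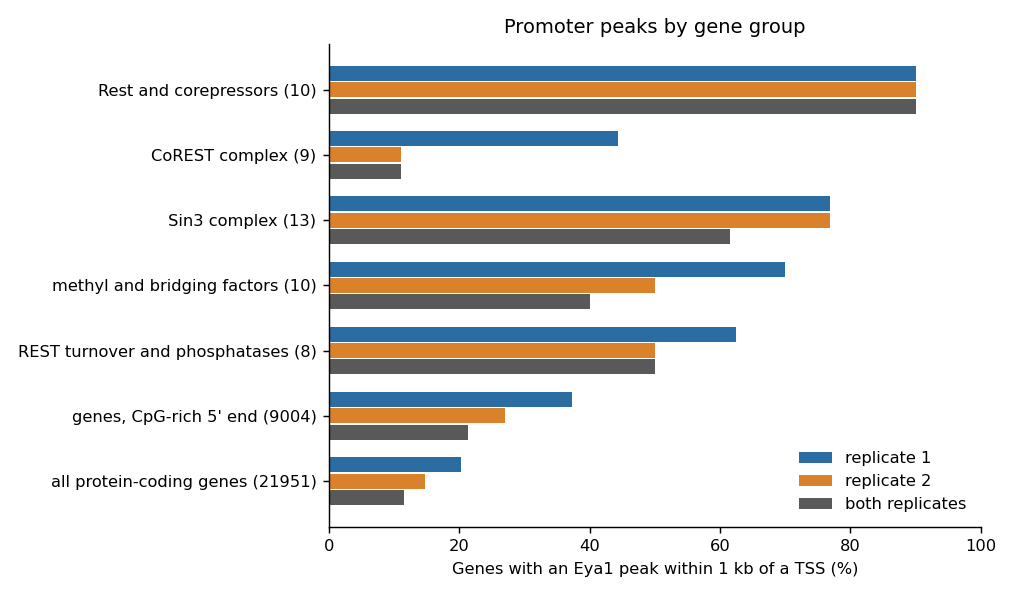
Share of genes (x axis, %) with an Eya1 peak within 1 kb of a TSS in replicate 1 (blue), replicate 2 (orange) and both (grey), with the number of genes in parentheses. Rest and its corepressors stand at 9 of 10 in each list, and the further CoREST partners at 4 of 9 in replicate 1 and 1 of 9 in replicate 2. All protein-coding genes stand at 20.2% in replicate 1 and 14.7% in replicate 2.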

How the data were processed

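ChIP-seq peaks of Eya1 from E13.5 kidneys were used. Per the methods, the authors aligned reads to mm10 with Bowtie, used MACS with several P cutoffs and either input or IgG as control, and kept peaks common to both calls. HISAT2 is listed in the submitters' processing notes without a role, and in the methods it is the aligner of the RNA-seq reads. The deposited lists hold the chromosome, start and end of each peak, without counts, scores or p-values, and which cutoff and control gave each list was not given in the sources used here. Groups and replicate numbers were taken from sample titles. Input and IgG were not analysed here.

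Coordinates are printed 1-based. Gene models were those of GENCODE M21, and letters were read from GRCm38.p6, the assembly of mm10. RefSeq promoter windows matched 8 of the 10 genes. A protein-coding gene was called when a peak lay within 1 kb of any of its TSSs, and lists were merged where peaks overlapped by at least 1 bp. Peak bases were assigned to coding exon, UTR, other exon or intron of any transcript, in that order. Width percentiles are the share of promoter peaks in a list that are no wider. No p-value was computed, since each gene gives presence or absence in 2 replicates. The members and gene lists were chosen with earlier results of these data known.

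Named genes are the 10 members, the 5 genes nearest to Rest in peak widths and, of the pathway list, those without a peak and up to 4 a group with the largest summed width. Some genes, 1 motif and 1 sequence are not reported here. Cdyl was named after its values were seen. Calculations were tested on simulated data. In these, 100% of 1000 promoter calls and of 1000 overlap calls came out as planted, including cases planted to give no call. Of 1000 planted RE1 elements, 100% were found. An RE1 match was held by 1.90% of 1000 random 300-bp windows drawn with equal shares of the 4 bases. The peaks searched differ from these windows in width and GC content, so 1.90% is not a chance rate for them. Python 3.11.15 with numpy 2.4.6, pysam 0.24.0 and matplotlib 3.10.9 was used.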

Additional observations from a re-analysis of the deposited data

How the results depend on the processing

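Of 34 alternative values for 7 counts over the 10 genes, 27 stayed within 1.5 times the value reported. Rcor2 had no promoter peak under any of them. With the requirement that a peak cover a TSS, 5 genes were counted in replicate 2 and 5 in both replicates, where 4.93% and 4.12% of all genes were, and Rcor1, Rcor3, Hdac1 and Hdac2 were lost. With the narrower peaks of each list left out, below its median width, 5 genes remained in both replicates, compared with 5.25% of all genes, and Rcor1, Rcor3, Sin3a and Hdac1 were lost. With 50% of both peaks covered, 2 genes were shared, Rest and Kdm1a, compared with 0.820% of all genes. When promoter peaks were included, 9 genes had a peak in the gene span, compared with 23.8% of all genes. The RE1 match at Hdac1 was lost, leaving 0 of 9 genes, with at most 1 mismatch and when the search was limited to the central 200 bp of a peak, where 3.09% and 5.73% of genes with a promoter peak held a match. Without replicate 1 and without replicate 2, 9 genes had a promoter peak in each case (14.7% and 20.2% of all genes) and 0 had a gene-body peak (1.58% and 1.07%). No paired analysis was possible because the Eya1 group is compared with no other group and no test was made. The lists carry no depth, so a gene without a listed peak may have one below the cutoff.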
